A study of Mus musculus with 20 samples.

Results

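The middle of the dark phase, ZT18, was set against the middle of the light phase, ZT6, in plasma cells that make immunoglobulin A (IgA) in the small intestine of the mouse. Zeitgeber time (ZT) counts the hours from lights on. The comparison used every library of both times, 5 of ZT18 and 5 of ZT6, which are 10 of the 20 libraries of the series, and all genes of the count table. All animals were wild-type C57BL/6 mice. The study's methods describe them as purchased and matched for age and sex, without giving the ages of these animals. Lamina propria cells were released with collagenase D and DNase I, and cells bearing CD138 and IgA were sorted by flow cytometry. Poly-T selected RNA was sequenced in bulk, with 1 animal per library, so that errors and p-values below describe the spread between animals. ZT18 and ZT6 lie 12 hours apart. The samples of ZT0 and ZT12 entered the choice of genes tested, the scaling and the estimate of the spread. They also served for levels by time and for the comparison of contrasts given last.

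Plasma cells are the end stage of the B cell lineage, and those of the gut wall secrete IgA, joined by the J chain, for export across the epithelium. Their RNA is dominated by antibody transcripts, and their endoplasmic reticulum (ER) folds and glycosylates the antibody chains. Mice feed mainly in the dark phase, so ZT18 falls in the active period and ZT6 in the resting period. Most cells hold a clock in which CLOCK and BMAL1 (encoded by Arntl) drive their own repressors through E-box sequences, and in which the receptors encoded by Nr1d1 and Nr1d2 repress Arntl. Sterol and fatty acid enzymes are driven by SREBP factors, which leave the ER for the nucleus when membrane sterol is scarce. NF-kappaB factors carry signals from receptors of immune cells to genes of inflammation and survival.

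The 5 libraries of ZT18 held 40.3 ± 4.28 M (mega) counts (SD) and the 5 of ZT6 held 45.3 ± 5.81 M. Antibody genes, here without the J chain, took 58.5 ± 0.658% of the counts at ZT18 and 57.4 ± 1.295% at ZT6, a difference that the exact permutation test did not separate from the spread (p = 0.159, two-sided, adjusted p = 0.238 over 3 shares). Without library 5 of ZT6 the difference was 1.51 percentage points (exact permutation p = 0.0397), and for the constant regions alone it was 2.15 percentage points (exact permutation p = 0.0317). Levels below are in CPM, counts per M counts of the library as scaled by TMM, a method that sets the libraries so that most genes have equal levels. All 18 plasma cell markers were tested, and the gene comparison below called 2 of them higher at ZT18 and 3 lower. This was 27.8% of the list, against 8.24% over all genes, a share that takes in scarce genes, which were seldom called. The CD138 gene Sdc1 was not among those called, with levels of 760.2 ± 35.6 CPM at ZT18 and 775 ± 51.7 CPM at ZT6. Markers of other cell types were present at low summed levels. B cell markers, a list of 10 genes of which 7 were tested, summed to 132 to 144 CPM at ZT18 and 145 to 149.9 CPM at ZT6. These sums over all 10 genes did not overlap, while the changes of the 7 tested genes were positive for 3 and negative for 4. T cell and ILC markers summed to 23.9 to 29.6 CPM at ZT18 and 27.5 to 35.8 CPM at ZT6, and macrophage and dendritic cell markers to 97.7 to 109.9 CPM at ZT18 and 90.2 to 135 CPM at ZT6. Enterocyte markers summed to 59.2 to 90.3 CPM at ZT18 and 49.6 to 104 CPM at ZT6, and stromal and endothelial markers to 31.6 to 39.7 CPM at ZT18 and 36.9 to 40.3 CPM at ZT6. Granulocyte and mast cell markers summed to 69.3 to 88.3 CPM at ZT18 and 75.9 to 91.4 CPM at ZT6, with S100a8, Elane and Cpa3 at 0 in all 10 libraries, and erythroid markers stayed under 0.5 CPM. Paneth and goblet markers varied widely, with 3.15, 28.04, 34.3, 6.74 and 5.29 CPM at ZT18, against 9.66, 9.68, 40.6, 86.5 and 15.99 CPM at ZT6. Libraries 3 and 4 of ZT6 and 2 and 3 of ZT18 stood highest, and without these 4 libraries 623 genes were called in the comparison described next, 332 higher and 291 lower, of which 559 were among the 1151 called with them. Of the marker genes of other cell types only 1, of the B cell list, was called, and the part of other cell types in the changes was not tested. In bulk RNA a smaller share of some cell and less RNA per cell cannot be told apart.

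Genes were compared to ask which transcripts of these cells differed between the middle of the dark phase and the middle of the light phase. Of 13967 genes tested, 1151 (8.24%) differed at an adjusted p under 0.01. At ZT18 565 were higher (4.05%) and 586 were lower (4.20%), and the median change over all genes tested was 0.00 on the log2 scale. Changes were small, with a median fold of 1.28 among the called genes. The change exceeded 1.5-fold in 207 of them and 2-fold in 54, and only 9 of these 54 had a mean of at least 5 CPM. Calls were rarer among scarce genes, and 1041 fell among the 7985 tested genes of at least 5 CPM. From 20 to 100 CPM 284 were higher and 262 lower of 3238, and from 100 CPM up 67 and 108 of 792. Shares over all genes, used below beside the lists, take in the scarce genes. Lists of abundant genes therefore stand less far from genes of like level. The 5 libraries of ZT18 and the 5 of ZT6 were fully separated for 1606 genes, or 11.5% of the genes tested. When libraries were scaled by their totals instead of TMM, 689 genes were called, 238 higher and 451 lower. ZT18 had the highest mean of the 4 times for 448 of the 565 higher genes, and ZT6 the lowest for 409. Of the 586 lower genes, 493 had their lowest mean at ZT18, 364 their highest at ZT6 and 184 their highest at ZT12. Choosing genes by the change between ZT18 and ZT6 favours extremes at these times, so these counts are a description only. With each of the 10 libraries left out in turn, 650 of the 1151 genes were called in all 10 fits, and all kept their sign. Genes named below that lost the call in any of these fits are given at the end of the paragraph with the number of such fits and their highest adjusted p.

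Rbm3 had the smallest p of all genes outside the antibody segments. It encodes an RNA-binding protein known to be induced by mild cold and is a protein-coding gene (ENSMUSG00000031167) on chromosome X from 8138975 to 8145880 (GRCm38, GENCODE M21). Its 10 libraries read 51.9, 61.1, 62.96, 61.2 and 60.3 CPM at ZT18, against 117, 124, 120.5, 119 and 113 CPM at ZT6. Every ZT18 library lay far below every ZT6 library, and the log2 fold change was -0.99 ± 0.05 (SE, n = 5 per time; edgeR adjusted p = 1.58e-16). Cirbp, the related cold-inducible RNA-binding protein, gave 39.5, 42.5, 49.8, 43.3 and 42.9 CPM at ZT18, against 68.2, 60.5, 56.7, 59.4 and 62.1 CPM at ZT6. These groups did not overlap either, with a log2 fold change of -0.49 ± 0.07 (adjusted p = 2.85e-06). Ctdsp2, a phosphatase of the RNA polymerase II tail, was also lower, with 31.5 ± 2.91 CPM at ZT18 and 54.1 ± 3.002 CPM at ZT6 (SD, n = 5 each), and so was Fyn, a kinase of the SRC family, with 27.2 ± 1.36 CPM at ZT18 and 42.8 ± 2.29 CPM at ZT6. Calcoco1, an autophagy receptor, fell by 0.61 ± 0.06 on the log2 scale, the aspartic protease gene Ctse by 0.57 ± 0.05, and Pafah1b3, a subunit of an acetylhydrolase of platelet-activating factor, by 0.54 ± 0.05.

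Hnrnpa2b1, which binds RNA in splicing and transport, was among the genes with the smallest p that were higher at ZT18. It lies on chromosome 6 from 51460932 to 51469894, and its libraries read 247, 251, 243, 230.2 and 236 CPM at ZT18, against 170.1, 169, 169, 163 and 167 CPM at ZT6. The ZT18 libraries stood far above those of ZT6, for a log2 fold change of 0.53 ± 0.04 (adjusted p = 1.80e-10). Nacc1, a BTB domain protein of the nucleus, rose by 0.55 ± 0.05.

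Outside the antibody segments, the widest rise among called genes of at least 5 CPM whose groups did not overlap belonged to Dpysl2. Dpysl2 (ENSMUSG00000022048, chromosome 14 from 66802864 to 66868688) encodes a protein that binds tubulin in growing axons and is also found in lymphocytes. It read 18.3, 16.6, 12.7, 16.3 and 17.1 CPM at ZT18, against 4.95, 4.84, 5.75, 7.86 and 5.90 CPM at ZT6. The groups lay apart, and the log2 fold change was 1.47 ± 0.19 (adjusted p = 3.21e-05). Acot7, which hydrolyses long-chain acyl-CoA, and Elovl6, which lengthens saturated fatty acids, followed with log2 fold changes of 1.29 ± 0.14 and 1.28 ± 0.18. Lower on this list stood Stx11, a syntaxin of granule release (0.97 ± 0.18), Pmepa1, an inhibitor of TGF-beta signalling (0.87 ± 0.14), the R-spondin receptor Lgr4 (0.86 ± 0.13), Vmp1, an ER membrane protein of autophagosome formation (0.85 ± 0.12), Etfbkmt, a methyltransferase of the electron transfer flavoprotein (0.82 ± 0.12), and Samd1, which binds CpG islands (0.79 ± 0.11). Gm8818, a gene model whose reads may be shared with a parent gene, also rose (1.07 ± 0.13).

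By the same rule, among called genes of at least 5 CPM without overlap and outside the antibody segments, Bach2 led the widest falls. Bach2, on chromosome 4 from 32238804 to 32586108, encodes a repressor that holds B cells back from becoming plasma cells. Its libraries read 2.46, 3.34, 3.57, 1.24 and 3.36 CPM at ZT18, against 7.66, 8.75, 9.64, 7.30 and 3.69 CPM at ZT6. Library 5 of ZT6 stood close to the highest ZT18 values while the other ZT6 libraries were well above, and the log2 fold change was -1.40 ± 0.28 (adjusted p = 0.00199). The call of Bach2 was lost in a fit of only these 10 libraries (adjusted p = 0.0209) and without the 4 libraries with the most Paneth and goblet counts (adjusted p = 0.0203). Slc39a7, the zinc transporter ZIP7 of the ER membrane, gave 7.94, 7.72, 7.61, 8.77 and 8.19 CPM at ZT18, against 17.5, 14.2, 14.6, 14.9 and 16.6 CPM at ZT6, groups far apart, with a log2 fold change of -0.95 ± 0.14 (adjusted p = 3.82e-05). Lat, the adaptor of the T cell receptor, fell by 0.88 ± 0.15, Mt1, a metallothionein, by 0.85 ± 0.11, Dnm3, a dynamin, by 0.84 ± 0.09, and Klrb1, a lectin-like receptor, by 0.83 ± 0.11. Atp1b1, a subunit of the sodium pump, fell by 0.81 ± 0.14, Cyp4f13, a cytochrome P450, by 0.79 ± 0.11, and Uap1l1, a homologue of a UDP-GlcNAc pyrophosphorylase, by 0.78 ± 0.09. The interferon-inducible gene Ifi27 fell by 0.76 ± 0.11, the calcium channel gene Cacna1e by 0.76 ± 0.09, Adssl1, which makes adenylosuccinate, by 0.73 ± 0.08, and the calcium-binding protein gene S100a13 by 0.70 ± 0.11. The gene model Gm15513 fell by 0.76 ± 0.12.

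**Figure D1:**
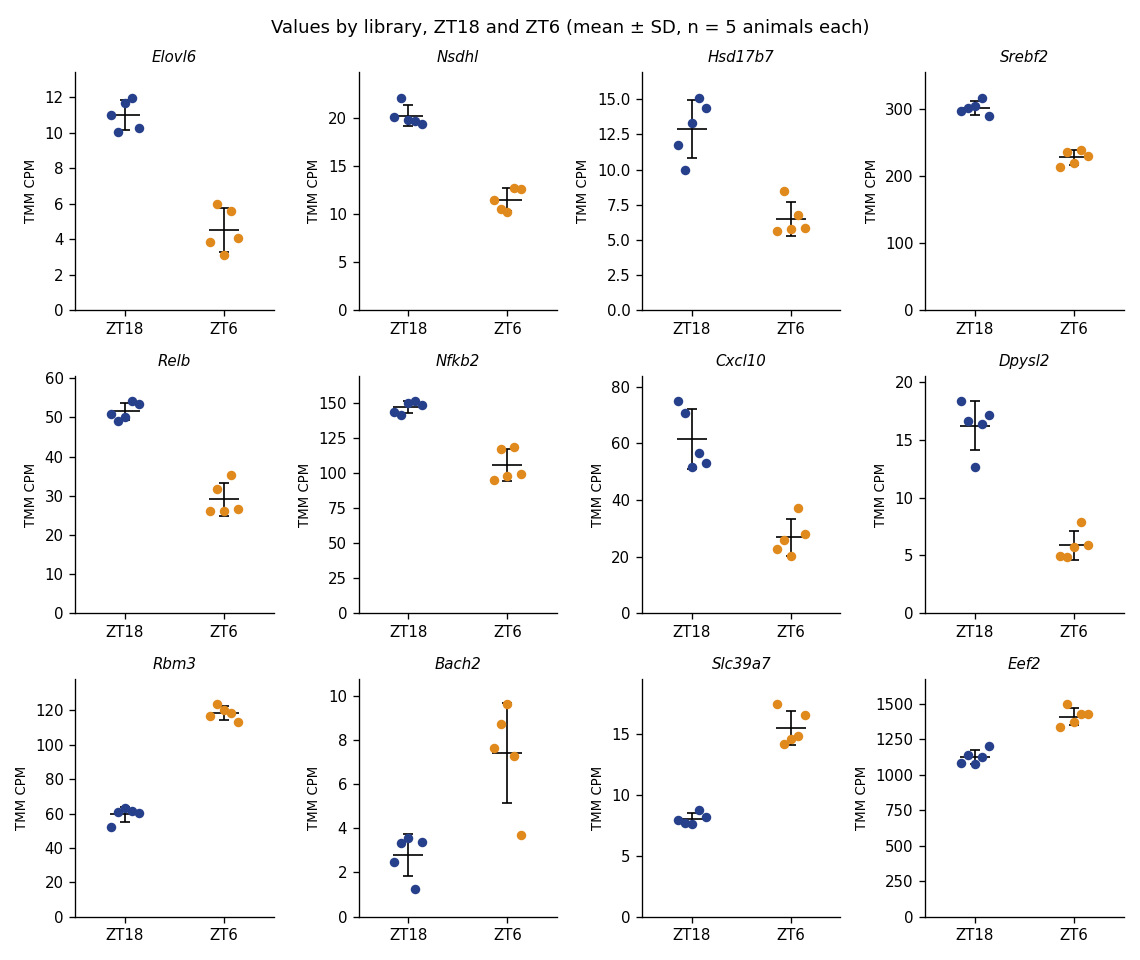
Level of 12 genes in TMM-scaled CPM (vertical axis, linear from 0) in the 5 libraries of ZT18 (blue, left) and the 5 of ZT6 (orange, right); each point is 1 animal, bars are the mean ± SD. The 8 genes of the upper and middle rows stood higher at ZT18 in every library, and Rbm3, Bach2, Slc39a7 and Eef2 stood lower, Bach2 with 1 ZT6 library near the ZT18 values.

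Cholesterol synthesis was the pathway with the largest share of called members among the lists of at least 10 tested genes. The study had singled it out from these same libraries, so the list was no independent choice. Of 20 enzymes, 14 were higher at ZT18 and none lower, against 4.05% higher over all genes (lower at an unadjusted p under 0.05 was 1 enzyme, and by DESeq2 14 were higher and 0 lower), and 19 of the 20 changes were positive with a median of 0.42. Nsdhl, which removes a methyl group of the sterol ring and lies on chromosome X from 72918557 to 72958514, read 20.2, 22.1, 19.9, 19.8 and 19.4 CPM at ZT18, against 11.5, 10.5, 10.2, 12.8 and 12.6 CPM at ZT6. The groups did not overlap, and the log2 fold change was 0.81 ± 0.08 (adjusted p = 1.69e-08). Hsd17b7, the keto reductase that acts beside it, read 11.8, 9.98, 13.3, 15.1 and 14.4 CPM at ZT18, against 5.61, 8.50, 5.75, 6.77 and 5.86 CPM at ZT6, again without overlap, and rose by 0.99 ± 0.12 (adjusted p = 9.18e-07). Dhcr7, a sterol reductase at the end of the pathway, rose by 0.46 ± 0.05.

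Along the pathway the called enzymes were spread from its entry to its end. Acat2, which condenses acetyl-CoA, rose by 0.79 ± 0.17 and Hmgcs1, which makes HMG-CoA, by 0.71 ± 0.16. Mvk, Pmvk and Mvd, which turn mevalonate into isopentenyl diphosphate, were not called, at 0.07 ± 0.15, 0.09 ± 0.08 and 0.03 ± 0.10. Idi1, the isomerase, rose by 0.66 ± 0.09, and Fdps, which makes farnesyl diphosphate, had the only negative value of the list, -0.42 ± 0.14 (adjusted p = 0.0339, not called). Fdft1, which commits farnesyl diphosphate to sterols, rose by 0.37 ± 0.06, Sqle, the squalene epoxidase, by 0.50 ± 0.07, Lss, the cyclase, by 0.32 ± 0.07, Cyp51, the demethylase, by 0.47 ± 0.09, Msmo1, the methyl oxidase, by 0.43 ± 0.08 and Sc5d, the desaturase, by 0.28 ± 0.07. Tm7sf2 and Ebp were not called, at 0.41 ± 0.17 and 0.12 ± 0.07. Without 1 library the call was lost by Hmgcs1 (7 of 10 fits, 0.0239) and Sc5d (6 of 10 fits, 0.0203).

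**Figure D2:**
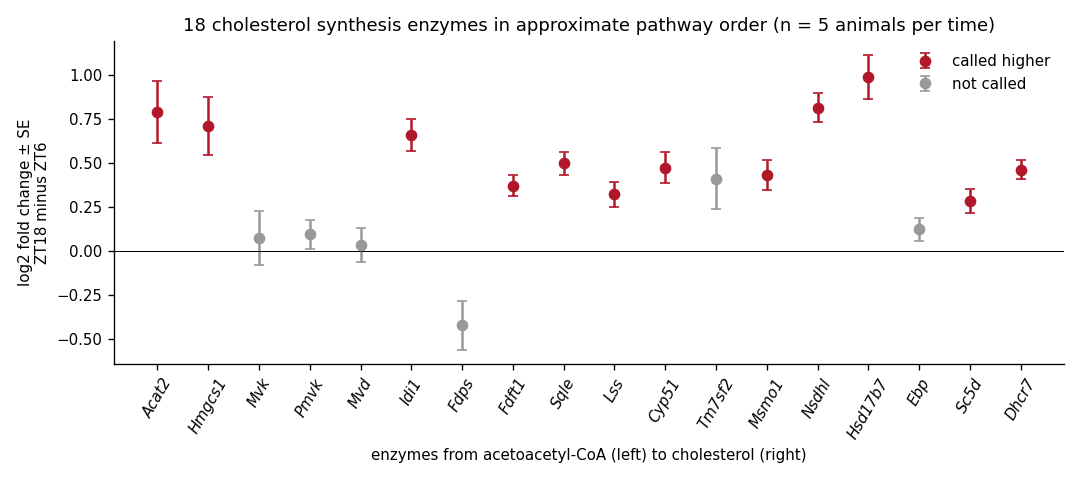
Log2 fold change of ZT18 minus ZT6 ± SE (vertical axis) of 18 enzymes of cholesterol synthesis in approximate pathway order (horizontal axis); red points were called higher and grey points were not called. The 12 called enzymes lie from 0.28 to 0.99, and Mvk, Pmvk and Mvd lie near 0.

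Genes that sense sterol and take it up were mixed, with 4 higher and 2 lower of 12 tested members (50% called, against 8.24% over all genes). Srebf2, the SREBP gene of the cholesterol pathway, read 297, 301, 304, 317 and 289 CPM at ZT18, against 213, 236, 219, 239 and 230.0 CPM at ZT6, without overlap, and rose by 0.41 ± 0.05 (adjusted p = 8.55e-08). Mylip, a ubiquitin ligase induced by sterols, went the other way with 6.07, 6.003, 6.22, 5.45 and 5.27 CPM at ZT18, against 9.93, 9.32, 7.64, 8.29 and 9.64 CPM at ZT6. All ZT18 libraries were below all ZT6 libraries, and it fell by 0.63 ± 0.11. Insig1, which holds SREBP in the ER, rose by 0.27 ± 0.05 and the sterol carrier gene Stard4 by 0.35 ± 0.07, while Scap, the escort of SREBP, fell by 0.30 ± 0.05. Sterol efflux genes and LXR targets had 0 higher and 0 lower of 7 called by edgeR, 2 at an unadjusted p under 0.05 and 0 by DESeq2, with a median of -0.22.

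Several fatty acid genes rose as well, again in pathways that the study named from these libraries. In fatty acid synthesis 5 higher and 0 lower of 11 were called (45.5%, against 8.24% over all genes, median 0.24). Fasn, the fatty acid synthase, had 109 ± 6.37 CPM at ZT18 and 78.4 ± 4.31 CPM at ZT6 and rose by 0.47 ± 0.05 (adjusted p = 9.04e-08). Acly, which supplies cytosolic acetyl-CoA, rose by 0.36 ± 0.05, Srebf1 by 0.28 ± 0.05, Acaca, the carboxylase, by 0.51 ± 0.12, and Me1, which supplies NADPH, by 0.95 ± 0.25 (adjusted p = 0.00706). In elongation and desaturation 6 higher and 0 lower of 14 were called (42.9%), and all 14 changes were positive (median 0.42). Elovl6, on chromosome 3 from 129532355 to 129638495, read 10.998, 10.05, 11.7, 11.9 and 10.2 CPM at ZT18, against 3.85, 5.97, 3.08, 5.58 and 4.04 CPM at ZT6, groups that lay far apart (adjusted p = 3.73e-05). Scd2, a desaturase that puts in the first double bond, rose by 0.75 ± 0.07 (adjusted p = 1.32e-08), its relative Scd1 by 0.87 ± 0.20, the delta-5 desaturase Fads1 by 0.88 ± 0.11, Fads3 by 0.33 ± 0.07, and Hsd17b12, a reductase of the elongation cycle, by 0.51 ± 0.12. Of acyl-CoA synthetases and thioesterases, 3 higher and 0 lower of 11 were called (27.3%). Acot7 read 8.74, 8.03, 8.29, 7.93 and 6.84 CPM at ZT18, against 2.70, 2.94, 3.65, 4.17 and 2.81 CPM at ZT6, without overlap, and the synthetases Acsl3 and Acsl4 rose by 0.73 ± 0.09 and 0.31 ± 0.06. With 1 library left out, the call was lost for Acaca (5 of 10 fits, 0.0183), Me1 (6 of 10 fits, 0.0285), Scd1 (3 of 10 fits, 0.0148) and Hsd17b12 (2 of 10 fits, 0.0120).

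Phospholipid synthesis had 3 higher and 1 lower of 23 (17.4% called, against 8.24% over all genes). The phosphatidate phosphatases Lpin1 (0.49 ± 0.09) and Lpin2 (0.22 ± 0.05) and the ethanolamine enzyme Pcyt2 (0.32 ± 0.07) were higher. The acyltransferase Agpat3 (-0.28 ± 0.06) was lower. In fatty acid oxidation none of 17 members was called by edgeR or by DESeq2, and 1 had an unadjusted p under 0.05. The call did not hold in every fit with 1 library left out for Lpin2 (3 of 10 fits, 0.0152).

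Promoter sequences of the called sterol genes that hold a sterol regulatory element are shown because this is the sequence that SREBP binds. They are the 250 bases before the start site, from RefSeq on GRCm38.p6, written from 5′ to 3′ on the strand of the gene, with the element TCACNCCA in capitals. Srebf2 lies on the plus strand at chr15:82147019-82147268 with the element beginning 162 bases before the start. Msmo1 lies on the minus strand at chr8:64733579-64733828 with the element 177 bases before the start, and Hmgcs1 on the plus strand at chr13:119690101-119690350 with it 137 bases before. The search covered both strands of the whole window, which also takes in the first bases of the gene.
Srebf2: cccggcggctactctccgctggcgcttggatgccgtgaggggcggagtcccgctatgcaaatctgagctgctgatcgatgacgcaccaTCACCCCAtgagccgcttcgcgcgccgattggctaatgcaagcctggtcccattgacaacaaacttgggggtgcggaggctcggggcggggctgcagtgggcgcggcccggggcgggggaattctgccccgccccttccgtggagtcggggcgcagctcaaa
Msmo1: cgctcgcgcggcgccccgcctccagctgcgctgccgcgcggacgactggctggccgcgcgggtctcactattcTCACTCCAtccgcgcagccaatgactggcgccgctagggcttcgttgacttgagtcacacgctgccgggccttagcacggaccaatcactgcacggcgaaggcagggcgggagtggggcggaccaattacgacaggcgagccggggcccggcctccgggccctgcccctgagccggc
Hmgcs1: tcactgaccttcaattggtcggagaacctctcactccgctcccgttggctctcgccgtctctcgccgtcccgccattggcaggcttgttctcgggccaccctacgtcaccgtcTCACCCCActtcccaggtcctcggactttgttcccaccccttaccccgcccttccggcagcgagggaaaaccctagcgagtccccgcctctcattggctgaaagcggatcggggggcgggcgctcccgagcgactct
The element was found in 4.36% of the 32851 windows of the table. By gene it was found in 28 of 445 called higher (6.29%) and 17 of 447 called lower (3.80%), against 430 of 9757 tested genes with a window (4.41%). Of the cholesterol enzymes, 15 had a window, and 2 of these held the element. The CCAAT box CCAAT, bound by NF-Y, was in the windows of 14 of the 15, against 43.1% of tested genes and 42.2% of genes called higher. Other lists also held it often, with 9 of 10 clock genes driven through E-boxes or D-boxes and 8 of 10 genes of fatty acid synthesis. Heat shock chaperones held it in 9 of 19. A match is a description of the letters and not a measured binding site.

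Genes of energy metabolism, which the study had also named from these libraries, were mixed. Glycolysis had 6 higher and 1 lower of 23 (30.4% called, against 8.24% over all genes), with a median of 0.16. Pkm, the pyruvate kinase, read 234, 234, 217, 232 and 221 CPM at ZT18, against 165, 185, 175, 187 and 179 CPM at ZT6, without overlap, and rose by 0.35 ± 0.05 (adjusted p = 1.16e-06). Pfkl, the liver form of phosphofructokinase, rose by 0.42 ± 0.05, whereas Pfkp, its platelet form, fell by 0.38 ± 0.08. Eno1, the enolase, rose by 0.46 ± 0.06, Aldoa, an aldolase, by 0.31 ± 0.05, Slc16a1, which carries lactate, by 0.35 ± 0.06, and Hk2, a hexokinase, by 0.25 ± 0.06. In the pentose phosphate pathway 3 higher and 1 lower of 7 were called (57.1%). G6pdx, its first enzyme, rose by 0.32 ± 0.08, Tkt by 0.27 ± 0.05 and Rpe by 0.41 ± 0.09, and Pgls fell by 0.35 ± 0.07. Of the citrate cycle and pyruvate entry, 3 higher and 1 lower of 25 were called (16%). The cytosolic isocitrate dehydrogenase Idh1, whose groups overlapped, rose by 0.51 ± 0.12 and the cytosolic aconitase Aco1 by 0.42 ± 0.09, while the mitochondrial Idh2 fell by 0.35 ± 0.06 and Ogdh rose by 0.23 ± 0.05. Leaving out 1 library ended the call of Hk2 (4 of 10 fits, 0.0143), G6pdx (4 of 10 fits, 0.0215), Rpe (without ZT18 replicate 2, adjusted p = 0.0103) and Idh1 (6 of 10 fits, 0.0202).

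Nuclear genes of the respiratory chain were called lower more often than higher, 1 higher and 16 lower of 78, with a median of -0.14 against 4.20% called lower and a median of 0.00 over all genes. Cox7a2l, which helps to join complexes III and IV, read 27.1, 27.9, 29.7, 28.2 and 34.1 CPM at ZT18, against 45.3, 44.3, 44.1, 42.9 and 42.9 CPM at ZT6. The groups lay apart by more than their whole range at either time, and the log2 fold change was -0.58 ± 0.06 (adjusted p = 1.32e-08). Uqcrq of complex III fell by 0.43 ± 0.05, Atp5g2 of the ATP synthase by 0.45 ± 0.06 and Ndufa7 of complex I by 0.54 ± 0.08. Ndufa9, also of complex I, was the exception and rose by 0.26 ± 0.07. None of 13 mitochondrially encoded messenger RNAs was called by edgeR or by DESeq2, and 2 had an unadjusted p under 0.05. Their share of the counts outside antibody genes was 1.90 ± 0.169% at ZT18 and 1.93 ± 0.148% at ZT6 (exact permutation p = 0.778, adjusted p = 0.778). Calls lost with 1 library left out were those of Ndufa9 (9 of 10 fits, 0.0346).

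Ribosomal protein genes were lower at ZT18, and the study had named translation from these same libraries. Of 81 cytosolic members, 51 fell and none rose by edgeR (also none at an unadjusted p under 0.05, and 57 lower and 0 higher by DESeq2), and 80 of the 81 changes were negative (median -0.25, and -0.29 when scaled by library totals). Over all genes 4.2% were called lower. Rpl3, of the large subunit, read 216, 239.7, 207, 225 and 238 CPM at ZT18, against 295, 320.2, 295, 308 and 293 CPM at ZT6. All ZT18 libraries lay below all ZT6 libraries, and the log2 fold change was -0.42 ± 0.05 (adjusted p = 3.55e-08). Fau fell by 0.35 ± 0.05, Rpl13a by 0.33 ± 0.05 and Rpsa by 0.28 ± 0.04. The summed share of the counts outside antibody genes was 3.12 ± 0.0855% at ZT18 and 3.68 ± 0.125% at ZT6, lower in 5 of 5 ZT18 libraries than in any ZT6 library (exact permutation p = 0.00794, the smallest that 5 against 5 can give; adjusted p = 0.0238). Many of these genes have processed pseudogenes that may share their reads, which leaves single members uncertain. Mitochondrial ribosomal proteins had 0 higher and 1 lower of 77, the called gene being Mrpl57 (-0.53 ± 0.06).

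Translation factors had 2 higher and 13 lower of 50 (30% called), although the median of the list was -0.02. Eef2, the factor that moves the ribosome along, read 1082, 1142, 1079, 1128 and 1200.5 CPM at ZT18, against 1335, 1497, 1371, 1425 and 1425 CPM at ZT6, without overlap, and fell by 0.33 ± 0.04 (adjusted p = 5.42e-08). Eef1a1, which delivers transfer RNA and is among the most abundant transcripts outside the antibody genes, fell by 0.21 ± 0.03, Eif3f, a subunit of initiation factor eIF3, by 0.38 ± 0.05, and Eif3e, another, by 0.30 ± 0.05. Eif4g2 and Eif5b rose, by 0.23 ± 0.04 and 0.23 ± 0.06. Ribosome biogenesis and the nucleolus had 4 higher and 0 lower of 46 (8.70% called, against 8.24% over all genes), with 36 positive changes and a median of 0.11. The called members were Polr1b, a subunit of RNA polymerase I (0.45 ± 0.11), Dkc1, which makes pseudouridine in ribosomal RNA (0.44 ± 0.10), Nat10, an RNA acetyltransferase (0.40 ± 0.09), and Mybbp1a (0.23 ± 0.06). Some fits with 1 library left out lost the call of Eif5b (7 of 10 fits, 0.0265), Polr1b (3 of 10 fits, 0.0134), Dkc1 (2 of 10 fits, 0.0112) and Mybbp1a (3 of 10 fits, 0.0140).

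**Figure D3:**
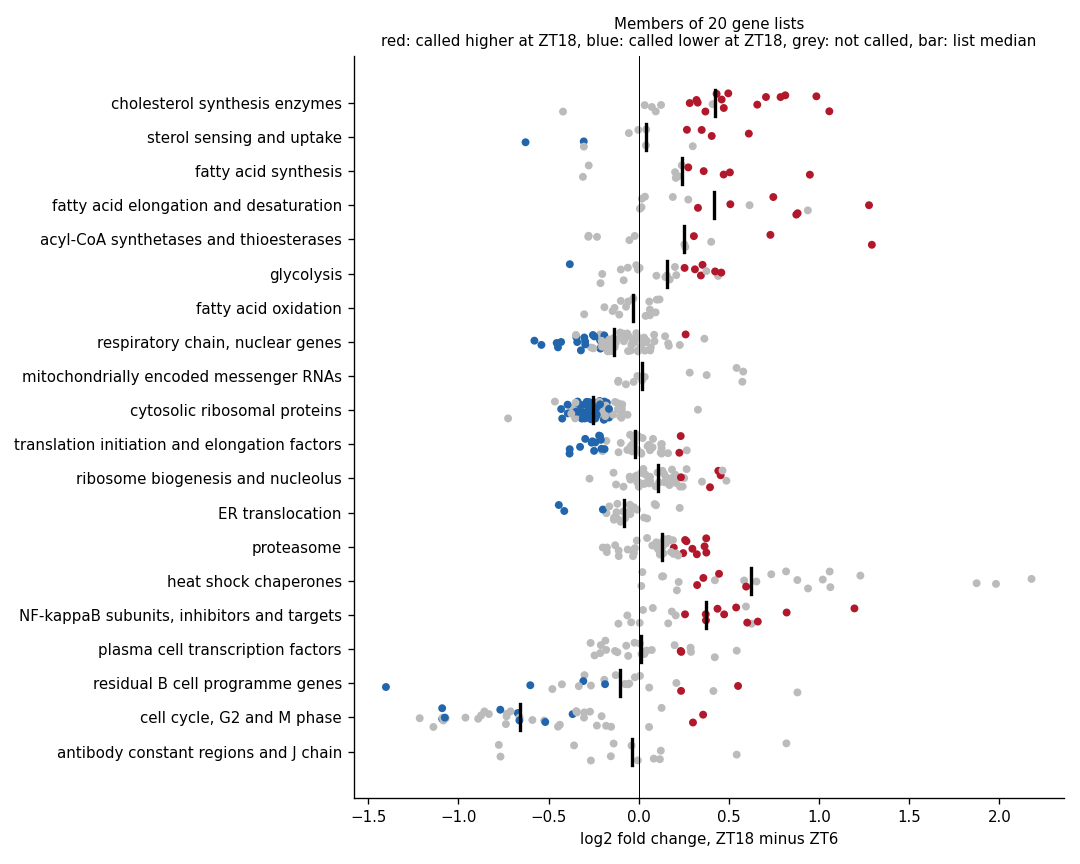
Log2 fold change of ZT18 minus ZT6 (horizontal axis) of every tested member of 20 gene lists (rows); each point is a gene, red called higher at ZT18, blue called lower, grey not called, and the black bar is the list's median. Cholesterol synthesis, the fatty acid synthesis and elongation lists, heat shock chaperones and NF-kappaB genes lie mostly to the right of 0. The sterol sensing and acyl-CoA lists lie on both sides. Ribosomal proteins, respiratory chain genes and the G2 and M phase list lie mostly to the left.

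Genes of the amino acid response moved both ways. The lists given here had 5.88% to 27.8% of their members called in either direction, against 8.24% over all genes. Atf5, a stress-responsive transcription factor, read 18.2, 18.4, 17.9, 24.1 and 16.7 CPM at ZT18, against 26.1, 34.3, 28.002, 29.7 and 24.1 CPM at ZT6, where the highest ZT18 library met the lowest of ZT6, and fell by 0.58 ± 0.12 (adjusted p = 0.00257). Asns, which makes asparagine, had 45.2 ± 1.87 CPM at ZT18 and 59.1 ± 3.39 CPM at ZT6 and fell by 0.39 ± 0.06, while Atf3, an early stress factor, and Ppp1r15b, which helps to restart translation, rose by 0.63 ± 0.12 and 0.20 ± 0.05, so that 2 higher and 2 lower of 18 were called. In serine, one-carbon and proline synthesis 0 higher and 5 lower of 18 were called, with Mthfd1l (-0.48 ± 0.12), Mthfd2 (-0.26 ± 0.07), Shmt2 (-0.25 ± 0.06) and Phgdh (-0.21 ± 0.05) among them. Slc7a5, which imports large neutral amino acids, fell by 0.30 ± 0.07, as the only called gene of 17 amino acid transporters (5.88%). Of 20 aminoacyl-tRNA synthetases, Sars (-0.33 ± 0.05) and Yars (-0.23 ± 0.06) fell. In the mTOR list 2 higher and 0 lower of 34 were called (5.88%), Rraga (0.22 ± 0.05) and Rptor (0.22 ± 0.06). Dropping 1 library lost the call of Ppp1r15b (7 of 10 fits, 0.0234), Mthfd1l (7 of 10 fits, 0.0328), Mthfd2 (7 of 10 fits, 0.0441), Shmt2 (without ZT6 replicate 2, adjusted p = 0.0122), Phgdh (3 of 10 fits, 0.0212), Slc7a5 (6 of 10 fits, 0.0212), Yars (5 of 10 fits, 0.0206), Rraga (6 of 10 fits, 0.0228) and Rptor (9 of 10 fits, 0.0231).

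No constant part of the antibodies was called. Of the 13 tested constant regions and J chain, 0 were called by edgeR, 0 by DESeq2 and 0 had an unadjusted p under 0.05. Igha, the heavy chain of IgA, read 310943, 303823, 290220.0, 314716 and 317041 CPM at ZT18, against 289384, 264329, 259704, 285127 and 312919 CPM at ZT6, with overlap, at a log2 fold change of 0.12 ± 0.09 (adjusted p = 0.427). Igkc, the kappa light chain, changed by 0.08 ± 0.10 (adjusted p = 0.659), and Jchain had 53379 ± 2361 CPM at ZT18 and 53553 ± 2459.7 CPM at ZT6 (SD, n = 5 each). The other values were 0.82 ± 0.42 for Ighm, -0.36 ± 0.53 for Ighg1, 0.12 ± 0.18 for Ighg2b, -0.77 ± 0.54 for Ighg2c, -0.78 ± 0.44 for Ighg3, -0.27 ± 0.61 for Ighe, -0.14 ± 0.61 for Iglc1, -0.04 ± 0.14 for Iglc2, -0.15 ± 0.43 for Iglc3 and 0.54 ± 0.50 for Iglc4. Of 263 antibody genes tested, 4 were called. Among these, and chosen after its values were seen, was the variable segment Ighv1-43, with 24.3, 1716, 4118, 239 and 38.7 CPM at ZT18, against 3.51, 0.274, 12.7, 0 and 1.36 CPM at ZT6. Libraries 2 and 3 of ZT18 carried nearly all of it, and the other 3 ZT18 libraries stood far below them. Ighv1-64, also named after its values were seen, read 3211, 1444, 999.8, 2045 and 2695 CPM at ZT18, against 579, 551, 999.8, 736 and 632 CPM at ZT6, where the lowest ZT18 library and the highest ZT6 library were alike. Segments of this family share reads, and each animal has clones of its own. Not called in every fit with 1 library left out were Ighv1-43 (5 of 10 fits, 0.0188) and Ighv1-64 (without ZT6 replicate 1, adjusted p = 0.0103). The call of Ighv1-43 was also lost by limma-voom (adjusted p = 0.378). In an edgeR fit of only these 10 libraries it was lost for Ighv1-43 (adjusted p = 0.0401) and Ighv1-64 (adjusted p = 0.0156).

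The ER held changes in both directions. Its lists had 7.55% to 25% of their members called in either direction, against 8.24% over all genes. In folding and disulfide bonds 2 higher and 5 lower of 28 were called. Canx, the lectin chaperone calnexin, read 214, 228, 201, 215 and 212 CPM at ZT18, against 144, 154, 156, 158 and 169 CPM at ZT6, without overlap, and rose by 0.46 ± 0.05 (adjusted p = 7.46e-08). Pdia6, a disulfide isomerase, rose by 0.25 ± 0.04, while Qsox1, a sulfhydryl oxidase, fell by 0.42 ± 0.07, Fkbp2, a prolyl isomerase, by 0.33 ± 0.05, Fkbp11, another, by 0.27 ± 0.06 and Selenof, a selenoprotein, by 0.28 ± 0.05. ER translocation had 0 higher and 3 lower of 24. Sec61b, of the translocation channel, read 106, 114, 105, 117 and 115 CPM at ZT18, against 148, 155, 154, 153 and 145 CPM at ZT6, with all ZT18 libraries below all of ZT6, and fell by 0.44 ± 0.05 (adjusted p = 1.19e-07), as did Sec11c, of the signal peptidase (-0.41 ± 0.04, adjusted p = 2.73e-09), and Ssr4 (-0.20 ± 0.05). The sensors and factors of the unfolded protein response had 1 higher and 2 lower of 18: Hsp90b1, the ER form of HSP90, rose (0.14 ± 0.04), and Wfs1 (-0.31 ± 0.06) and Atf6b (-0.22 ± 0.05) fell. Xbp1, the factor of this response in plasma cells, had 2006 ± 14.5 CPM at ZT18 and 1908 ± 40.3 CPM at ZT6. All ZT18 libraries lay above all ZT6 libraries, but the change was 0.07 ± 0.03 and was not called (adjusted p = 0.0736). ER-associated degradation had 2 higher and 2 lower of 19: Ubxn4 (0.24 ± 0.05) and Nploc4 (0.22 ± 0.05) rose, and Erlec1 (-0.35 ± 0.05) and Derl3 (-0.21 ± 0.05) fell. In N-glycosylation 2 higher and 3 lower of 33 were called, among them Ganab, a trimming glucosidase (0.28 ± 0.04), and Dad1, of the oligosaccharyltransferase (-0.22 ± 0.05). Vesicle traffic from the ER to the Golgi had 0 higher and 4 lower of 53, or 7.55%, near the share over all genes. The called genes were Stx5a (-0.25 ± 0.05), Sec24d (-0.26 ± 0.06), Cope (-0.18 ± 0.05) and Preb (-0.18 ± 0.05). Without 1 library the call was lost by Ssr4 (2 of 10 fits, 0.0133), Hsp90b1 (6 of 10 fits, 0.0200), Atf6b (2 of 10 fits, 0.0118), Nploc4 (4 of 10 fits, 0.0182), Derl3 (6 of 10 fits, 0.0245), Dad1 (3 of 10 fits, 0.0140), Sec24d (without ZT6 replicate 5, adjusted p = 0.0118), Cope (8 of 10 fits, 0.0307) and Preb (8 of 10 fits, 0.0226).

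Of 40 proteasome genes, 9 were higher (22.5%, against 4.05% over all genes) and none lower (median 0.13). Called subunits belonged mostly to the regulatory particle, and those with the smallest p were Psmd1 (0.37 ± 0.06), Psmc5 (0.37 ± 0.06), Psmd11 (0.32 ± 0.05) and Psmd7 (0.30 ± 0.05). Autophagy and the lysosome had 0 higher and 4 lower of 40, 10% against 4.20% lower over all genes (median -0.07): Lamp1, a protein of the lysosomal membrane, read 18.1, 16.9, 16.2, 17.4 and 16.8 CPM at ZT18, against 21.6, 26.6, 26.1, 21.3 and 26.7 CPM at ZT6, without overlap, and fell by 0.52 ± 0.10, the autophagosome coat proteins Map1lc3b and Gabarap by 0.30 ± 0.04 and 0.25 ± 0.05, and Atg13 by 0.22 ± 0.05. With 1 library left out, the call was lost for Atg13 (4 of 10 fits, 0.0202).

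Heat shock chaperones had positive changes in every tested member, 24 of 24, with a median of 0.62, but 4 were called higher and 0 lower (16.7%, against 8.24% over all genes). Their sums were 2595, 5354, 1511, 2125 and 3019 CPM at ZT18, against 989, 1687, 1703, 2458 and 1155 CPM at ZT6. Library 2 of ZT18 stood highest, and the lowest ZT18 library lay below several of ZT6. Hspa1b, the inducible HSP70, varied widely within each time, with 87.4, 812, 13.6, 51.1 and 128 CPM at ZT18, against 2.55, 62.7, 40.96, 160.0 and 10.3 CPM at ZT6, and was not called (adjusted p = 0.310). The called members varied little: Stip1, which joins HSP70 to HSP90, read 45.5, 48.8, 36.5, 43.1 and 44.7 CPM at ZT18, against 24.6, 32.7, 29.4, 31.7 and 26.4 CPM at ZT6 and rose by 0.60 ± 0.10, Ahsa1, an activator of HSP90, by 0.45 ± 0.08, Trap1, the mitochondrial HSP90, by 0.36 ± 0.06 and Hsf1, the heat shock factor, by 0.32 ± 0.06. The part of this variation between libraries in other changes was not tested. Without libraries 2 and 5 of ZT18, those with the highest sums, 668 genes were called, 324 higher and 344 lower, among them 639 of the 1151. In that fit the median of the chaperones was 0.34, the cholesterol enzymes had 12 higher and 0 lower of 20, the ribosomal proteins 0 higher and 47 lower of 81, the NF-kappaB list 10 higher and 0 lower of 21 and the proteasome 6 higher and 0 lower of 40.

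**Figure D4:**
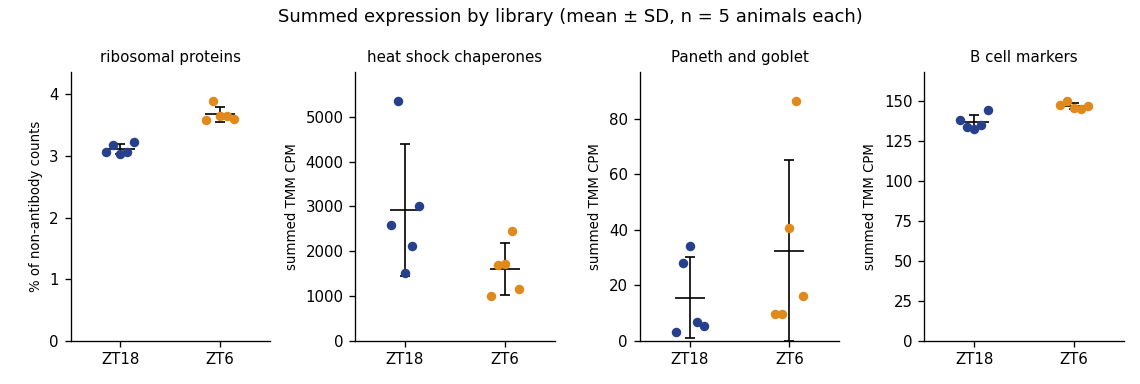
Summed expression per library at ZT18 (blue, left) and ZT6 (orange, right), each point 1 animal with the mean ± SD: ribosomal protein genes as a percentage of counts outside antibody genes, and heat shock chaperones, Paneth and goblet markers and B cell markers as summed TMM-scaled CPM, all axes linear from 0. Ribosomal protein shares lie from 3.03 to 3.23% at ZT18 and from 3.58 to 3.89% at ZT6, while the heat shock and Paneth and goblet sums overlap between the times.

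NF-kappaB genes were higher at ZT18. Of 21 subunits, inhibitors and targets, 10 rose and none fell by edgeR (also none at an unadjusted p under 0.05, and 12 higher and 0 lower by DESeq2), with a median of 0.37. Over all genes 4.05% were called higher. Relb, a subunit of the noncanonical route on chromosome 7 from 19606217 to 19629438, read 50.9, 49.1, 50.2, 54.1 and 53.3 CPM at ZT18, against 26.1, 31.7, 26.1, 35.3 and 26.5 CPM at ZT6. Each ZT18 library was well above each ZT6 library, and the log2 fold change was 0.82 ± 0.09 (adjusted p = 3.73e-06). Nfkb2, whose product p100 pairs with RELB, read 144, 141, 149.9, 152 and 149 CPM at ZT18, against 95.4, 117, 98.3, 119 and 99.7 CPM at ZT6, again without overlap, for a change of 0.47 ± 0.06. Nfkb1 rose by 0.44 ± 0.06 and Rela by 0.26 ± 0.05. Tnip1, a brake on the pathway, rose by 0.54 ± 0.07 and Bcl3, a nuclear partner of p50 and p52, by 0.60 ± 0.09. Among targets, the chemokine gene Cxcl10 read 74.9, 70.9, 51.6, 56.7 and 53.2 CPM at ZT18, against 22.7, 25.9, 20.1, 37.3 and 27.9 CPM at ZT6. The ZT18 libraries spread widely but stayed above all ZT6 libraries, for a change of 1.20 ± 0.22 (adjusted p = 0.00129). The adhesion molecule Icam1 had 23.6 ± 2.86 CPM at ZT18 and 14.9 ± 2.15 CPM at ZT6 and rose by 0.66 ± 0.11. Birc3 and Traf1, which act at TNF receptors, rose by 0.37 ± 0.07 and 0.37 ± 0.07.

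The other signal-responsive lists had 6.67% to 27.8% of their members called in either direction, against 8.24% over all genes. Of immediate early genes 2 higher and 0 lower of 27 were called, Atf3 and Btg1 (0.42 ± 0.08). Of Kruppel-like factors Klf7 alone was called (0.70 ± 0.10), and of MAP kinase phosphatases and Sprouty genes Dusp8 (0.76 ± 0.14). Interferon-stimulated genes had 4 higher and 2 lower of 31: Rsad2 (0.62 ± 0.11), Igtp (0.36 ± 0.07), Cxcl10 and Gbp3 (0.28 ± 0.07) rose, and Isg20 (-0.25 ± 0.05) and Zbp1 (-0.23 ± 0.05) fell. Glucocorticoid receptor targets had 3 higher and 2 lower of 18. Sgk1, a kinase, read 13.2, 14.9, 9.79, 13.9 and 13.8 CPM at ZT18, against 6.40, 7.93, 6.94, 8.37 and 8.34 CPM at ZT6, without overlap, and rose by 0.79 ± 0.12, Fkbp4, a co-chaperone of the receptor, by 0.57 ± 0.06 and Cdkn1a, a brake on the cell cycle, by 0.72 ± 0.14. Txnip, which limits glucose uptake and whose groups overlapped, fell by 0.46 ± 0.11. Of NRF2 genes 3 higher and 0 lower of 17 were called: Prdx1 (0.44 ± 0.05), Gclc, which starts glutathione synthesis (0.55 ± 0.08), and Txnrd1 (0.37 ± 0.07). Metallothioneins and zinc transporters had 2 higher and 3 lower of 20: Mt1, Slc39a7 and Slc39a14 (-0.27 ± 0.05) fell, and Slc39a10 (0.47 ± 0.11) and Slc30a9 (0.25 ± 0.07) rose. The call did not hold in every fit with 1 library left out for Gbp3 (3 of 10 fits, 0.0154), Zbp1 (3 of 10 fits, 0.0167), Txnip (8 of 10 fits, 0.0304), Slc39a10 (2 of 10 fits, 0.0154) and Slc30a9 (9 of 10 fits, 0.0284).

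Clock genes that were called encode mostly repressors and a D-box factor. Of 12 tested genes that answer to E-boxes or D-boxes, 1 was higher and 3 were lower (33.3% called, against 8.24% over all genes). Nr1d1, which encodes REV-ERB alpha, read 1.47, 1.14, 1.55, 1.32 and 1.43 CPM at ZT18, against 3.69, 2.86, 3.27, 3.06 and 3.84 CPM at ZT6. It was a scarce transcript, yet all ZT18 libraries lay below all ZT6 libraries, and it fell by 1.27 ± 0.19 (adjusted p = 1.27e-05). Nr1d2, which encodes REV-ERB beta, read 35.7, 44.3, 43.8, 34.9 and 32.1 CPM at ZT18, against 63.02, 53.1, 55.8, 56.5 and 66.03 CPM at ZT6 and fell by 0.63 ± 0.10. Tef, a D-box factor, had 17.5 ± 0.847 CPM at ZT18 and 21.9 ± 2.69 CPM at ZT6 and fell by 0.32 ± 0.08 (adjusted p = 0.00347). Bhlhe41, a repressor at E-boxes, was the gene that rose, by 0.29 ± 0.07 (adjusted p = 0.00242). Leaving out 1 library ended the call of Tef (4 of 10 fits, 0.0195) and Bhlhe41 (2 of 10 fits, 0.0115).

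The remaining clock genes were not called. Among the period genes, Per1 had 131 ± 10.2 CPM at ZT18 and 149.9 ± 19.5 CPM at ZT6 (adjusted p = 0.0846), Per2 changed by 0.13 ± 0.14 and Per3 by 0.25 ± 0.09 (adjusted p = 0.0443). The cryptochromes Cry1 and Cry2 stood at 0.21 ± 0.19 and 0.07 ± 0.08, Dbp, a D-box factor, at -0.36 ± 0.15, Ciart, a repressor, at -0.34 ± 0.20 and Bhlhe40 at 0.38 ± 0.11 (adjusted p = 0.0122). Arntl read 7.64, 7.12, 8.79, 7.96 and 8.22 CPM at ZT18, against 5.11, 7.34, 6.16, 5.54 and 6.15 CPM at ZT6. Library 2 of ZT6 stood above the lowest ZT18 library and the other ZT6 libraries below all of ZT18, and its change of 0.39 ± 0.13 missed the threshold (adjusted p = 0.0327). Clock stood at 0.04 ± 0.09, Rora at -0.21 ± 0.15 and Nfil3 at 0.37 ± 0.15, and none of 11 modifiers of PER and CRY proteins was called by edgeR or by DESeq2 (2 at an unadjusted p under 0.05). Per1 had its higher levels at both light transitions, with 197 ± 14.8 CPM at ZT0 and 196 ± 15.98 CPM at ZT12, and Nr1d2 had 33.6 ± 4.35 CPM at ZT0 and 46.3 ± 3.29 CPM at ZT12.

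**Figure D5:**
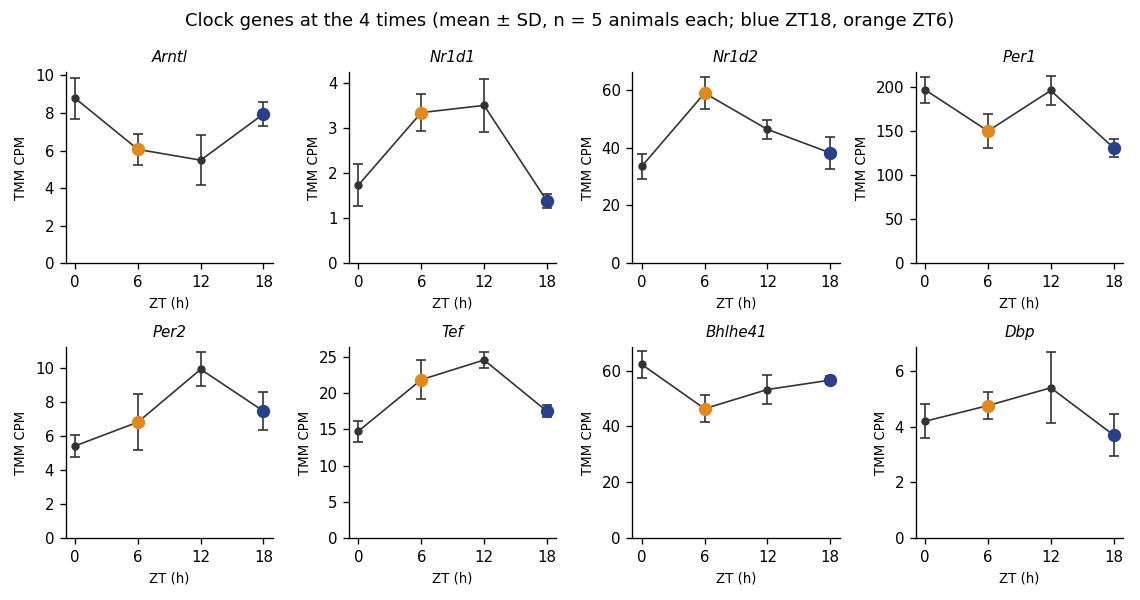
Level of 8 clock genes in TMM-scaled CPM (vertical axes, linear from 0) at ZT0, ZT6, ZT12 and ZT18 (horizontal axes, hours), mean ± SD of 5 animals; ZT18 is blue and ZT6 orange. Nr1d1 and Tef are low at ZT18 and ZT0 and high at ZT6 and ZT12, Nr1d2 has its highest mean at ZT6, and Per1 has higher means at ZT0 and ZT12 than at ZT18 and ZT6.

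Promoters of the called clock genes that hold the E-box CACGTG are shown because it is the sequence through which CLOCK and BMAL1 act. Bhlhe41 lies on the minus strand at chr6:145865421-145865670 with the E-box 153 bases before the start. For Tef, which has 2 windows, the window shown is on the plus strand at chr15:81802423-81802672 with the E-box 127 bases before its start. Capitals mark the E-box, and the 250 bases before the start are given from 5′ to 3′ (RefSeq, GRCm38.p6).
Bhlhe41: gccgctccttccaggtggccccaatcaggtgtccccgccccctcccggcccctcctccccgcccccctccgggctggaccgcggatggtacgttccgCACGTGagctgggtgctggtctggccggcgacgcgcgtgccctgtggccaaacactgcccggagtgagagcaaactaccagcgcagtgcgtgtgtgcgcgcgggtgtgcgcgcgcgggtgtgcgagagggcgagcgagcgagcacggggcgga
Tef: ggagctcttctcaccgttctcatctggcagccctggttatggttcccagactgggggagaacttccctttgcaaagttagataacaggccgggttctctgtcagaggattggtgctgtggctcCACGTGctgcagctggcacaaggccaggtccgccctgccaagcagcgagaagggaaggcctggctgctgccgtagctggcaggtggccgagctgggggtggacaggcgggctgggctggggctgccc
These genes changed in opposite directions. The E-box, whose letters read the same on both strands, was in 7.15% of all windows. By gene it was in 54 of 445 called higher (12.1%) and 61 of 447 called lower (13.6%), against 11.8% of tested genes. Of the 10 genes of the E-box and D-box list with a window, 5 held it. The heat shock element GAANNTTC was in the windows of 10 of 19 heat shock chaperones, against 6.87% of tested genes, but of none of the called chaperones before their start, so none is printed.

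Lists of plasma cell identity and survival genes are read here against the 8.24% called over all genes. The transcription factors had 2 higher and 0 lower of 24 (8.33%). Prdm1, which encodes BLIMP1, the factor that ends the B cell programme, read 292, 272, 281, 266 and 250.1 CPM at ZT18, against 241, 220.2, 249.7, 229 and 215 CPM at ZT6, without overlap, and rose by 0.24 ± 0.05 (adjusted p = 0.00182), and Pou2f2, which encodes OCT2, rose by 0.23 ± 0.06. Irf4, which plasma cells need to survive, had 310.2 ± 16.1 CPM at ZT18 and 309 ± 40.1 CPM at ZT6 and was not called (adjusted p = 0.979). Surface molecules had 4 higher and 0 lower of 27 (14.8%), with Icam1, Slamf7 (0.21 ± 0.05), Cd53 (0.20 ± 0.05) and Cd274 (0.19 ± 0.05). Survival receptors had 2 higher and 1 lower of 12 (25%). Tnfrsf17, which encodes BCMA, the receptor for APRIL, read 74.9, 84.1, 73.6, 85.4 and 78.8 CPM at ZT18, against 103, 106, 105, 105 and 103 CPM at ZT6. The ZT6 libraries were within a few CPM of each other and above every ZT18 library, and it fell by 0.40 ± 0.05 (adjusted p = 2.38e-06). Tnfrsf9, which encodes 4-1BB, rose by 0.83 ± 0.20, and Tnfrsf1b, a receptor of TNF, by 0.47 ± 0.09. Bcl2l1, which encodes BCL-XL, rose by 0.55 ± 0.14 as the only called gene of the BCL2 family (18 tested). Calls lost with 1 library left out were those of Prdm1 (without ZT18 replicate 1, adjusted p = 0.0107), Pou2f2 (8 of 10 fits, 0.0331), Cd53 (8 of 10 fits, 0.0209), Cd274 (6 of 10 fits, 0.0291), Tnfrsf9 (6 of 10 fits, 0.0231) and Bcl2l1 (9 of 10 fits, 0.0329).

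Receptors for homing and cytokines changed in part. Ccr9, which guides cells to the small intestine, read 103, 94.003, 85.4, 93.8 and 96.7 CPM at ZT18, against 141, 125, 139, 119 and 119 CPM at ZT6, without overlap, and fell by 0.44 ± 0.06 (adjusted p = 3.49e-06). Itgb7, the beta chain of the gut-homing integrin, fell by 0.20 ± 0.05 and S1pr4, a sphingosine phosphate receptor, by 0.30 ± 0.08, and Itgb1, another integrin chain, rose by 0.35 ± 0.07. Of cytokine and prolactin receptors 2 higher and 1 lower of 21 were called (14.3%, against 8.24% over all genes). Ifngr2 (0.51 ± 0.12) and Il2rb (0.31 ± 0.07) rose, and Il6st, the shared chain of the IL-6 receptor, fell by 0.31 ± 0.08. Some fits with 1 library left out lost the call of Itgb7 (4 of 10 fits, 0.0184), S1pr4 (8 of 10 fits, 0.0247), Ifngr2 (3 of 10 fits, 0.0135), Il2rb (6 of 10 fits, 0.0161) and Il6st (7 of 10 fits, 0.0193).

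Genes left from the B cell programme were mixed, 2 higher and 4 lower of 22 (27.3% called, against 8.24% over all genes). Besides Bach2, Ets1, a factor that restrains plasma cell formation, fell by 0.31 ± 0.05 and Blnk, an adaptor of the B cell receptor, by 0.19 ± 0.05, while Fcrla rose by 0.55 ± 0.06 and Swap70 by 0.24 ± 0.05. The summed B cell markers, given above, were also lower in each ZT18 library than in each ZT6 library, and their part in these changes was not tested. The study's flow plots of these cells left out cells bearing B220 or IgD, which mark B cells, before CD138 and IgA were read. Of 11 genes that present antigen on MHC class II (18.2% called), H2-Ob fell by 0.54 ± 0.14 and H2-Ab1 by 0.19 ± 0.05. MHC class I genes and the immunoproteasome had 2 higher and 2 lower of 22 (18.2%). Tapbp (0.31 ± 0.05) and H2-Q10 (0.96 ± 0.26), which shares sequence with other class I genes, rose, and H2-T23 (-0.27 ± 0.04) and Psmb9 (-0.21 ± 0.05) fell. Dropping 1 library lost the call of Blnk (9 of 10 fits, 0.0269), H2-Ob (8 of 10 fits, 0.0240), H2-Ab1 (5 of 10 fits, 0.0278), H2-Q10 (8 of 10 fits, 0.0422) and Psmb9 (6 of 10 fits, 0.0384).

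Cell cycle genes are another group that the study named from these libraries. Those of G2 and M phase had 2 higher and 8 lower of 40 (25% called, against 8.24% over all genes) with a median of -0.66. Cdk1, the kinase of mitotic entry, read 1.20, 2.44, 1.68, 1.56 and 1.60 CPM at ZT18, against 3.74, 3.54, 3.54, 3.89 and 3.38 CPM at ZT6. The ZT6 libraries were close to each other and all above the ZT18 libraries, and it fell by 1.09 ± 0.22 (adjusted p = 6.36e-04). Hmgb2, a chromatin protein, fell by 0.52 ± 0.08. The genes of this list that rose, Tubb5 (0.36 ± 0.05) and Tuba1b (0.30 ± 0.07), encode tubulins that cells also use outside mitosis. None of 34 S phase genes was called by edgeR and 1 was lower by DESeq2, while 7 had an unadjusted p under 0.05 (median -0.10). Chromatin modifiers had 5 higher and 3 lower of 55 (14.5%). The demethylases Kdm6b (0.44 ± 0.07) and Kdm2b (0.51 ± 0.10) and the deacetylase Sirt1 (0.44 ± 0.07) were among the higher. The acetyltransferase Kat6b (-0.37 ± 0.07) was among the lower. Nampt, the rate-limiting enzyme of NAD salvage, rose by 0.37 ± 0.08. Splicing factors had 3 higher and 2 lower of 38 (13.2%). Srsf10 (0.37 ± 0.05) and Hnrnpc (0.31 ± 0.05) were among the higher, and Hnrnpa1 (-0.19 ± 0.05), which has many pseudogenes, among the lower. Not called in every fit with 1 library left out were Tuba1b (2 of 10 fits, 0.0118) and Hnrnpa1 (5 of 10 fits, 0.0228).

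The change between ZT18 and ZT6 was last compared with the change between the light transitions, ZT12 minus ZT0, in a test of the difference between these contrasts, which share no library. The changes differed for 1252 genes, 8.96% of those tested, 576 more positive and 676 more negative in ZT18 minus ZT6. When libraries were scaled by their totals the count was 1005, with 782 more positive and 223 more negative, and the median difference of all genes moved to 0.14 against 0.01 with TMM. For Rbm3 the changes were -0.99 ± 0.05 in ZT18 minus ZT6 and 0.35 ± 0.05 in ZT12 minus ZT0, a difference of -1.34 ± 0.07 (adjusted p = 6.11e-16). In the same order Hnrnpa2b1 had 0.53 ± 0.04 and -0.32 ± 0.04, a difference of 0.85 ± 0.06. For Eef2 the values were -0.33 ± 0.04 and 0.46 ± 0.04, for Rpl3 -0.42 ± 0.05 and 0.40 ± 0.05, and for Cox7a2l -0.58 ± 0.06 and 0.62 ± 0.06. Nfkb2 had 0.47 ± 0.06 and -0.67 ± 0.06, and Tyk2, a kinase of cytokine receptors, 0.43 ± 0.05 and -0.57 ± 0.05. All 7 genes given here thus had opposite signs in the contrasts, which choosing them by the smallest p for the difference favours.

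The difference was called for 8.96% of all genes tested, and the counts by list stand beside that share. It was more positive for 15 of 20 cholesterol enzymes and 13 of 21 NF-kappaB genes, and more negative for none of either. It was more negative for 67 of 81 ribosomal proteins, 23 of 40 G2 and M phase genes, 18 of 50 translation factors, 12 of 28 ER folding genes (with 2 more positive) and 8 of 18 genes of serine, one-carbon and proline synthesis. Of 24 heat shock chaperones 2 had a more positive difference, near the share over all genes. Of 12 clock genes with E-box or D-box control 2 had a more positive and 4 a more negative one.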

How the data were processed

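IgA+ plasma cells of 20 animals, 5 per time, were profiled by bulk RNA sequencing after poly-T selection. The deposited table of raw counts held 47069 Ensembl genes, and a deposited table of FPKM values, which the authors made from these counts, held 18886 and gave their symbols. The aligner, counter, strand setting and genome build were not given in the sources used here. Symbols of 27727 further genes came from GENCODE M21. Counts were analysed with edgeR 4.0.16 in R 4.3.3. Genes passing filterByExpr were scaled by TMM and fitted with the quasi-likelihood model over the 4 times, and p-values were adjusted by Benjamini-Hochberg with a threshold of 0.01. The pipeline was tested on simulated data. FPKM values were used for symbols and lengths only. Counts of the 5 libraries ranged from 36.6 to 45.8 M at ZT18 and from 35.6 to 49.4 M at ZT6.

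The comparison and the gene lists were chosen with earlier results of these data known. Named genes were the 16 highest and 16 lowest changes (called, at least 5 CPM on average, groups without overlap), the 10 smallest p, the 10 called genes of highest mean, up to 4 called members of each list by p, all members of the clock and constant region lists, and the 8 smallest p for the difference between contrasts. Antibody segments were outside all but the list rules. Further members of the lists were named after their values were seen, and a few genes that these rules select are not reported here. Alternatives were DESeq2 1.42.0, limma-voom 3.58.1, other scalings and filters, a replicate block and leaving out libraries. Promoter windows came from RefSeq (GRCm38.p6) by symbol, for 9757 of 13967 tested genes.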

Additional observations from a re-analysis of the deposited data

Results flagged for a closer look

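Of 162 groups of 5 libraries examined, 9 held a library that stood apart from the other 4 by more than Dixon's critical share of the range at the 95% level, and chance gives about 5% of such groups. At ZT18, library 2 was highest for Nsdhl with 22.14 CPM, where the nearest library had 20.16 CPM, and for the inducible chaperone gene Hspa1b with 812.4 CPM, where the nearest had 127.8 CPM. Library 4 of ZT18 was highest for Sqle with 85.56 CPM against 73.83 CPM in the nearest library and for Atf5 with 24.09 CPM against 18.43 CPM. Library 1 of ZT18 was lowest for Rbm3 with 51.89 CPM against 60.32 CPM, which placed it farther from the ZT6 libraries. Library 5 of ZT18 had the highest sum of granulocyte and mast cell markers, 88.34 CPM against 73.34 CPM in the nearest.

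At ZT6, library 2 was lowest for Hsp90b1 with 2033 CPM against 2252 CPM in the nearest library. Library 3 of ZT6 had the highest level of the variable segment Ighv1-43, 12.66 CPM against 3.513 CPM. The ribosomal protein share was highest in library 2 of ZT6, at 3.892% against 3.656% of counts outside antibody genes.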

How the results depend on the processing

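With DESeq2 1465 genes were called between ZT18 and ZT6, 709 higher and 756 lower, and with limma-voom 1193. At an adjusted p under 0.05 the edgeR fit gave 2157 genes, 1060 higher and 1097 lower. Library totals in place of TMM gave 689 genes, 238 higher and 451 lower, so that 34.5% of the calls were higher against 49.1%, and the median of all genes was -0.03. Settings with other size factors, other filters, the 10 libraries alone or no antibody genes gave 1089 to 1223. Leaving out 1 library at a time gave 833 to 1061 genes, 408 to 541 of them higher and 412 to 520 lower. Alternatives added after the data were seen left out the 4 libraries with the most Paneth and goblet counts, for 623 genes, 332 higher and 291 lower, or the ZT18 libraries 2 and 5 with the most heat shock counts, for 668 genes, 324 higher and 344 lower. Both had fewer samples than the fit of all libraries. Of 241 genes compared singly 211 were called, and changes of sign were counted for these only. None of the 211 changed sign under any alternative, and 118 were called under every alternative. The call was lost for 69 of the 211 without the 4 Paneth-rich and goblet-rich libraries and for 60 without the 2 heat shock libraries. With library totals it was lost for 58 and in the fit of the 10 libraries alone for 13.

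The difference between contrasts was called for 1005 genes with library totals, 1205 without the expression filter, 1233 with limma-voom, and 1085 to 1233 with 1 library left out. The fit with a replicate block called 1115 genes between ZT18 and ZT6 and 1216 for the difference between contrasts, against 1151 and 1252. ZT18 and ZT6 libraries of the same replicate number did not deviate together over 7780 genes, with correlations of -0.03, 0.10, -0.13, -0.09 and 0.06 for numbers 1 to 5. The labels do not say what the number means, and a shared day or cage was not tested.

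The antibody share was higher at ZT18 by 0.746 to 1.51 percentage points with 1 library left out, the highest value without ZT6 replicate 5 (exact permutation p = 0.0397), and by 2.15 percentage points (exact permutation p = 0.0317) for constant regions alone. The mitochondrial share, lower at ZT18 with all libraries, was higher by 0.0244 percentage points without ZT18 replicate 4 and by 0.0319 without ZT6 replicate 1, within a range of -0.0775 to 0.0319. The ribosomal protein share differed by -0.590 to -0.507 percentage points. The causes of these shifts were not tested. Depth limits what can be said of scarce transcripts: of the 54 changes above 2-fold, 9 belonged to genes that averaged at least 5 CPM.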

Other observations

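Several gene families outside the lists of the report were gathered after their members had been seen among the called genes, so their counts describe these data only. Against the 4.05% higher and 4.20% lower of all genes, the cytoskeleton stood out on the higher side. Of 16 actins and tubulins 8 were higher at ZT18 and 1 lower (median 0.34). The beta actin gene Actb, which has many pseudogenes that may share its reads, had 1375 ± 88.6 CPM at ZT18 and 981 ± 72.2 CPM at ZT6 and rose by 0.49 ± 0.07 on the log2 scale (edgeR adjusted p = 2.24e-04). The tubulin genes Tubb2a and Tuba1c rose by 0.44 ± 0.06 and 0.41 ± 0.07, and Tubg2, a gamma tubulin of microtubule nucleation, fell by 0.59 ± 0.12. The CCT chaperonin, which folds actin and tubulin, had 4 of 9 subunits higher, among them Cct3 (0.48 ± 0.05) and Cct8 (0.37 ± 0.05). Of 12 tropomyosins and ARP2/3 subunits 3 were higher, Tpm3 (0.28 ± 0.05), Tpm4 (0.31 ± 0.07) and Arpc4 (0.31 ± 0.06).

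Of 29 genes of nuclear transport 8 were higher, with the GTPase Ran (0.40 ± 0.06) and the importin Ipo4 (0.38 ± 0.07) in front. The Integrator and the machinery of RNA 3′ ends had 6 of 30 higher, led by Ints2 (0.61 ± 0.11) and Cstf2 (0.50 ± 0.08). On the lower side stood 7 of 43 lysosomal hydrolases, led by Dnase2a, an acid DNase (-0.61 ± 0.09), and Ctse (-0.57 ± 0.05), with Neu1, a sialidase (-0.39 ± 0.06), among them. Of 20 selenoproteins 4 were lower, with Selenom (-0.43 ± 0.07), Selenop (-0.42 ± 0.08) and Selenow (-0.38 ± 0.05), and 1 was higher, the thioredoxin reductase gene Txnrd1.

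By gene length, the 1541 shortest of the tested genes outside antibodies with at least 5 CPM (median length 898 bases) held 62 called higher and 195 called lower at ZT18, with a median change of -0.05. Without ribosomal proteins that median was -0.04. The 1537 longest (median length 4066 bases) held 116 called higher and 65 called lower, with a median change of 0.03. The part of gene length in the changes was not tested.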
